A study of Mus musculus with 9 samples.

Results

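The genes described here are 40 members of the integrin adhesion machinery, named one by one out of 54838 genes in the count tables: 11 integrin alpha subunits, 6 integrin beta subunits, 9 talin, kindlin and KANK genes, 7 genes of ILK-PINCH-parvin complexes with Rsu1, and 7 adaptors and kinases. They were named for how they stood in 2 contrasts, HOCl against untreated in B16F10 and melanoma against T cells, so their values in both contrasts are a description and carry no test here. The study exposed mouse cells to hypochlorous acid (HOCl), the oxidant that neutrophil myeloperoxidase makes, and sequenced their RNA. B16F10 is a melanoma line from C57BL/6 mice, grown for 4 days on plates and kept for 5 h in medium without HOCl (3 libraries) or with 600 µM HOCl (3 libraries). CD8+ T cells were taken from spleens of adult C57BL/6 mice with a CD8a+ isolation kit and kept 5 h without HOCl (2 libraries) or with 600 µM HOCl (1 library). No group carried a transgene or deletion per the labels, B16F10 is 1 line, and the number of mice behind a T cell library is not stated.

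Integrins are paired alpha and beta receptors that bind matrix proteins or counter-receptors on other cells. Talin and kindlin bind the beta tail and switch the receptor on, and talin, with the ILK-PINCH-parvin complex, paxillin and zyxin, ties it to actin, while FAK and its scaffold p130Cas (Bcar1) carry the signal. KANK proteins bind talin at the rim of the adhesion and link it to cortical microtubule sites. Melanoma cells are known for matrix-binding integrins such as alpha v beta 3, and T cells for the leukocyte integrins LFA-1 (Itgal with Itgb2), alpha 4 beta 7 and alpha E beta 7.

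Gene counts ran from 45.9 to 61.3 M in the 6 B16F10 libraries; the untreated T cell libraries had 49.9 and 52.1 M, and the library labelled T cell HOCl 12.8 M. That last library stood apart: 44225 genes were detected in it and 22855 to 25907 in each of the others, and mitochondrial transcripts took 37.4% of its counts against at most 2.11%. Summed melanocyte markers (10 genes, all detected in B16F10) stood at 24737 to 25802 CPM (counts per M counts over all genes of that library) in B16F10, 104 and 26.0 CPM in untreated T cells and 6928 CPM in the library labelled T cell HOCl. Summed T cell markers (12 genes) stood at 5213 and 4982 CPM in untreated T cells, 763 CPM in the library labelled T cell HOCl, 5.82 to 7.35 CPM in 5 B16F10 libraries and 42.7 CPM in B16F10 HOCl replicate 3. The labels do not say whether replicates are separate cultures or mice, and every spread and p-value therefore measures these libraries only and may be technical.

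Promoter windows are shown first for 4 members from 2 families whose members moved in opposite directions in B16F10, to set their start regions side by side. Kank4 and Itga1 fell with HOCl, and Kank1 and Itga5 rose. Each window runs 5′ to 3′ from 250 bases before to 50 after a RefSeq start on build GRCm38.p6, with motif matches in capitals. The starts of Kank4, Kank1 and Itga1 equal the 5′ end of the gene in GENCODE, and that of Itga5 lies upstream of it, at an offset of -28 bases.
Kank4 (chr4:98817488-98817787, minus strand): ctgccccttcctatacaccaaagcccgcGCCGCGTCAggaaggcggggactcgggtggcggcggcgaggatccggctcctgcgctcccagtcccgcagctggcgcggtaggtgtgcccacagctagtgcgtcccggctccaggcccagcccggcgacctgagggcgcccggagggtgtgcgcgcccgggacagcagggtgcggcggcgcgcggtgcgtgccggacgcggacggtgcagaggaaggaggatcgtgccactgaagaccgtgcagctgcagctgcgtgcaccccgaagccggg
Kank1 (chr19:25236725-25237024, plus strand): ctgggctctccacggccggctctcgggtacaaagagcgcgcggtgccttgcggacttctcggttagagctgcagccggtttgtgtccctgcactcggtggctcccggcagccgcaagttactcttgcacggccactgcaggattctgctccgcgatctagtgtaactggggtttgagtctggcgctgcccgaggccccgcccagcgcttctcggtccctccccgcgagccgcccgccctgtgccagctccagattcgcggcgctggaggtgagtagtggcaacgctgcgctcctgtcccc
Itga1 (chr13:115101915-115102214, minus strand): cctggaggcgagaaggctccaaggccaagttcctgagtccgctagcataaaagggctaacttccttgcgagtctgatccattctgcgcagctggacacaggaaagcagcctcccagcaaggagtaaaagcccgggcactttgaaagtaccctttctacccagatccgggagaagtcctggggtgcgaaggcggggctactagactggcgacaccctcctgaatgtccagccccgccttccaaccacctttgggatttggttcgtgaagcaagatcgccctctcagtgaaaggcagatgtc
Itga5 (chr15:103366742-103367041, minus strand): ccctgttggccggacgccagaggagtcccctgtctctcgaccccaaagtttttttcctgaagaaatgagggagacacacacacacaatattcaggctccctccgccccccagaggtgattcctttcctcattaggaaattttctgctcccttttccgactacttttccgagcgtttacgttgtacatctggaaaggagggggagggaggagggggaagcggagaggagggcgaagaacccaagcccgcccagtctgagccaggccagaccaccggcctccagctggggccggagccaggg
A set of 5 motifs was searched on both strands. They were TGACNNNGC (the core of the antioxidant response element), TGANTCA (AP-1), GGAATG (TEAD), CACGTG (E-box) and the CArG box of serum response factor. The Kank4 window holds the antioxidant element core, while the Kank1, Itga1 and Itga5 windows hold none of the 5. Of the 40 members, 28 matched the RefSeq table, with 34 windows. Of these windows, 6 lie over 1 kb from the GENCODE 5′ end, the only Itga9 window among them, and are left aside, which leaves 28 windows of 27 members. The antioxidant element core lay in 4 of them (Fermt2, Itgb1, Kank4, Lims1), or 14.3%, against 12.4% of all 32851 windows of the table, which were not limited by distance. AP-1 lay in 1 (Zyx), or 3.57% against 7.81%, TEAD in 1 (Itgb1), or 3.57% against 14.7%, and the E-box in 1 (Ilk), or 3.57% against 7.15%. The CArG box lay in 2 (Fermt2, Rsu1), or 7.14% against 1.63%. Of the 4 members with the antioxidant core, Kank4 was called lower with HOCl, Lims1 was called higher, and Fermt2 and Itgb1 were not called. Nothing about direction is read from this. Not in the table were Itga6, Itga7, Itgae, Itgal, Itgb2, Itgb3, Tln2, Lims2, Parva, Pxn, Ptk2 and Ptk2b.

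In B16F10 given HOCl, the members split evenly. Of 39 tested, 8 were called higher (Itga5, Itga7, Itgb3, Kank1, Lims1, Pxn, Zyx, Bcar1), 8 lower (Itga1, Itga9, Itgb5, Tln2, Kank4, Lims2, Parva, Parvb) and 23 were not called, at an adjusted p under 0.05 by edgeR's quasi-likelihood test over all genes tested. Fermt1 was at 0 in every B16F10 library and was not tested. Among all 16082 genes tested, 14.7% were called higher and 13.5% lower, and since the members were chosen on this contrast nothing is read from their shares of 20.5% each (28.3% of all genes were called in either direction). Their median log2 fold change was 0.05 and their median absolute one 0.31, beside -0.01 and 0.20 over all genes. The CPM ranges of the groups did not overlap for 21 of the 39, against 43.6% of all genes. Among those called, Itgb3 and Itga7 were higher by 1.5-fold or more, and Itga1, Tln2, Kank4 and Lims2 were lower by that much. Of all 16082 genes tested, 366 were called and higher by that much and 352 lower. Nothing is read from the members' counts here either. The authors' deposited table called 15 members, 7 positive and 8 negative, and all 15 had the same sign and a call here, though that table does not name its groups by treatment. Itga7 was called here only.

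**Figure D1:**
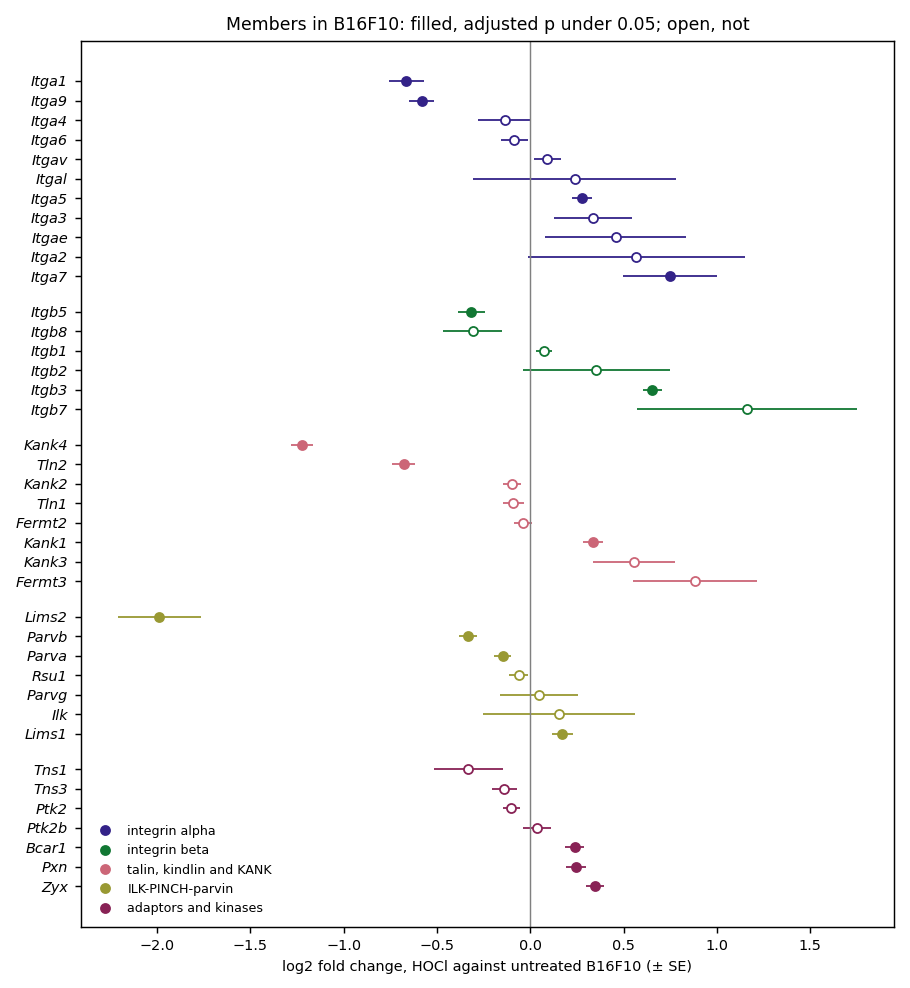
Log2 fold change (± SE) of each tested member, HOCl against untreated B16F10, on the horizontal axis, with genes on the vertical axis grouped by role. Filled dots are the 16 called members; Lims2 (-1.99) and Kank4 (-1.22) lie farthest to the left, and Itga7 (0.75) and Itgb3 (0.65) are the called members farthest to the right.

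Among the alpha subunits, 2 of 11 were called higher and 2 lower. Itga9, the receptor subunit for tenascin and osteopontin, stood at 64.3, 68.6 and 75.2 CPM in untreated libraries and at 48.6, 44.6 and 48.3 CPM with HOCl. Every HOCl value lay under every untreated one, and the mean fell from 69.3 ± 5.48 to 47.2 ± 2.23 CPM (SD, n = 3 each), a log2 change of -0.58 ± 0.07 (SE). Itga1, a collagen receptor subunit, stood at 12.9, 14.5 and 15.5 CPM untreated and 9.16, 8.63 and 9.78 CPM with HOCl. The groups were again apart, with a log2 change of -0.66 ± 0.09. Itga5, the fibronectin receptor subunit, moved the other way, from 61.4, 61.2 and 65.2 CPM to 74.8, 80.2 and 76.4 CPM, without overlap and with a log2 change of 0.27 ± 0.05. Itga7, a laminin receptor subunit, was scarce, at 0.831, 1.11 and 0.654 CPM untreated and 1.43, 1.60 and 1.42 CPM with HOCl, a log2 change of 0.75 ± 0.25. Its call was lost in 8 of the alternatives, DESeq2 among them.

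The other laminin and fibronectin receptor subunits were not called. Itga6 ran from 118 to 144 CPM untreated and from 122 to 134 CPM with HOCl, and Itgav, the vitronectin receptor subunit, from 101 to 125 and from 119 to 132 CPM. Itga3 stood at 1.39, 1.55 and 1.74 CPM untreated and 2.04, 1.64 and 2.34 CPM with HOCl, with overlap and a log2 change of 0.34 ± 0.21. Itga4, which binds fibronectin and VCAM-1, had a log2 change of -0.14 ± 0.14, but its untreated replicate 1 (66.4 CPM) lay under the other 2 (100.5 and 98.8 CPM). Itga2, Itgae and Itgal were all at or under 1.13 CPM in every B16F10 library.

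Among the beta subunits, Itgb3, the partner of Itgav in the vitronectin receptor, was the one called higher. It stood at 49.7, 51.4 and 53.2 CPM untreated and at 83.5, 82.3 and 81.4 CPM with HOCl. The lowest HOCl library was far above the highest untreated one, and the mean rose from 51.4 ± 1.78 to 82.4 ± 1.06 CPM, a fitted log2 change of 0.65 ± 0.05 (1.57-fold on the TMM scale). Itgb5, another partner of Itgav, fell from 65.0, 54.5 and 53.2 CPM to 47.6, 47.0 and 47.1 CPM, a log2 change of -0.32 ± 0.07. The groups did not overlap, and the untreated libraries spread over a wider range than the HOCl ones. Itgb1, the shared partner of most alpha subunits, ran from 727 to 766 CPM untreated and from 802 to 811 CPM with HOCl. Its groups were apart, yet the log2 change of 0.07 ± 0.04 was not called. Itgb8, the partner of Itgav known for activating latent TGF-beta, ran from 4.08 to 5.73 CPM untreated and from 3.80 to 4.91 CPM with HOCl, with overlap.

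Itgb2, the beta chain of leukocyte integrins, stood at 0.831, 0.756 and 0.784 CPM untreated and at 0.735, 0.551 and 1.81 CPM with HOCl. The high value was in HOCl replicate 3, where T cell markers were also high, and the groups overlapped. Without that library its log2 change was -0.33 in place of 0.35. Itgb7 showed the same library high, with 1.11 CPM against 0.189 to 0.283 CPM in the other 5. Without replicate 3 its log2 change was 0.06 in place of 1.16. Neither was called, and the part of T cell RNA in these values was not tested.

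**Figure D2:**
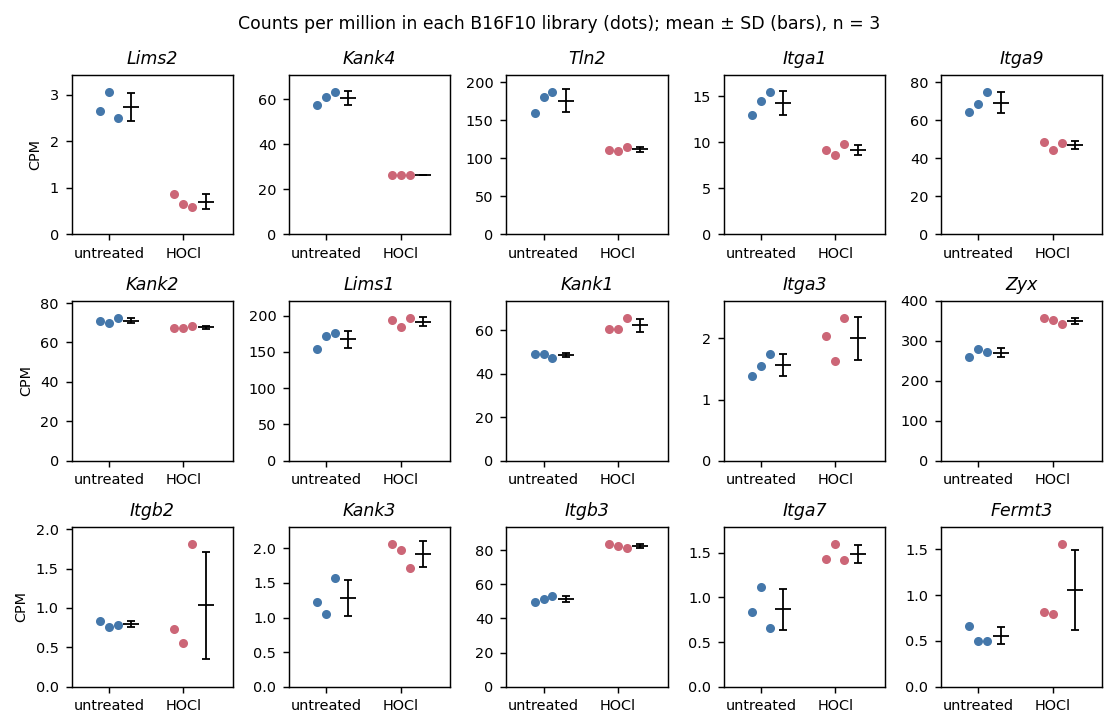
CPM in each B16F10 library (dots, vertical axis starting at 0), untreated against HOCl, with mean ± SD (n = 3) at the side. Shown are the KANK and PINCH genes and 12 members. These 12 had the largest absolute log2 change among members whose higher group averaged at least 50 counts, which leaves out Itgb7. Kank4 (57.2 to 63.3 CPM untreated, 26.3 to 26.5 with HOCl), Tln2, Itga9, Itga1 and Lims2 lie lower in all 3 HOCl libraries, and Itgb3, Zyx, Kank1 and Lims1 higher; Itgb2 and Fermt3 have 1 high HOCl dot, replicate 3.

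Among talins, kindlins and KANK genes, 1 of 8 tested was called higher and 2 lower. Tln2, the less abundant talin, stood at 159, 180.2 and 187 CPM untreated and at 111, 109 and 115 CPM with HOCl. The groups lay far apart, and the mean fell from 175 ± 14.9 to 112 ± 2.97 CPM, a log2 change of -0.68 ± 0.06. Tln1, the main talin, ran from 591 to 689.6 CPM untreated and from 608 to 625 CPM with HOCl, overlapped and was not called. Scaled by exon length (RPKM), Tln2 made up 12.7 ± 0.201% of talin transcripts untreated and 8.84 ± 0.136% with HOCl. Fermt2 (kindlin-2), the kindlin of adherent cells, ran from 185 to 201 CPM untreated and from 191 to 193 CPM with HOCl, with overlap and no call. Fermt3 (kindlin-3), the kindlin of blood cells, stood at 0.668, 0.504 and 0.501 CPM untreated and at 0.816, 0.799 and 1.56 CPM with HOCl. Its groups were apart but not called, its highest value was again in HOCl replicate 3, and without that library its log2 change was 0.50 in place of 0.88.

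The 4 KANK genes did not move together. Kank4 stood at 57.2, 60.8 and 63.3 CPM untreated and at 26.3, 26.5 and 26.3 CPM with HOCl. The HOCl libraries were nearly equal and far under every untreated one. The mean fell from 60.4 ± 3.09 to 26.4 ± 0.165 CPM, a fitted log2 change of -1.22 ± 0.06 (2.34-fold lower on the TMM scale). Kank1 rose, from 49.0, 48.9 and 47.3 CPM to 60.4, 60.6 and 65.7 CPM, without overlap and with a log2 change of 0.33 ± 0.05. Kank2 stood at 70.9, 70.0 and 72.5 CPM untreated and 67.5, 67.2 and 68.6 CPM with HOCl, apart by a small margin and not called (-0.10 ± 0.05). Kank3, the scarcest, stood at 1.22, 1.05 and 1.57 CPM untreated and 2.06, 1.98 and 1.71 CPM with HOCl, apart but not called (0.56 ± 0.22). Per length, the order of KANK levels was Kank2 (13.6 ± 0.242 RPKM), Kank4 (12.6 ± 0.643), Kank1 (7.85 ± 0.155) and Kank3 (0.393 ± 0.0811) in untreated cells, and Kank2 (12.9 ± 0.134), Kank1 (10.1 ± 0.485), Kank4 (5.50 ± 0.0343) and Kank3 (0.588 ± 0.0556) with HOCl. Kank4 thus went from 36.6 ± 1.16% to 18.9 ± 0.423% of KANK transcripts and Kank1 from 22.8 ± 0.908% to 34.6 ± 1.01%, while the KANK sum went from 34.4 ± 0.717 to 29.1 ± 0.545 RPKM.

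In the ILK-PINCH-parvin group, 1 of 7 was called higher and 3 lower. Lims2 (PINCH-2), the scarcer PINCH, stood at 2.64, 3.07 and 2.51 CPM untreated and at 0.878, 0.647 and 0.584 CPM with HOCl, the largest log2 change of any member at -1.99 ± 0.22. Lims1 (PINCH-1) moved the other way, from 154, 171 and 177 CPM to 194, 185 and 197 CPM, with a log2 change of 0.17 ± 0.06 and a call lost in 5 of the alternatives. Lims1 made up 97.4 ± 0.299% of PINCH transcripts per length untreated and 99.4 ± 0.126% with HOCl. Parvb (beta-parvin) fell from 179, 192 and 185 CPM to 150.1, 153 and 147 CPM, and Parva (alpha-parvin) from 140.5, 148 and 145 CPM to 136, 131 and 132 CPM. Both were without overlap, but the log2 change of Parva was small (-0.15 ± 0.05, against -0.33 ± 0.05 for Parvb) and its call was lost in 8 of the alternatives. Parvg, the parvin of blood cells, ran from 1.92 to 2.56 CPM untreated and from 1.76 to 2.70 CPM with HOCl, and Rsu1, which binds PINCH-1, from 82.0 to 89.1 and from 80.6 to 85.5 CPM. Neither was called. Ilk was at 0.154 to 0.681 CPM in all 9 libraries. Of its exon length, 89.7% is shared with other annotated genes, 76.7% with Taf10 on the opposite strand, and the strand setting is not given in the sources used here, and whether this bears on its level was not tested.

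Among adaptors and kinases, 3 of 7 were called higher and none lower. Zyx (zyxin), which marks adhesions under tension, stood at 258, 280.5 and 271 CPM untreated and at 357, 351 and 341 CPM with HOCl. The groups were well apart, with means of 269.7 ± 11.2 and 349.8 ± 8.16 CPM and a log2 change of 0.35 ± 0.05. Pxn (paxillin) rose from 64.9, 69.8 and 71.2 CPM to 82.6, 83.4 and 82.6 CPM, and Bcar1 from 84.0, 89.4 and 87.8 CPM to 102, 108 and 104 CPM, with log2 changes of 0.25 ± 0.05 and 0.24 ± 0.05. The kinases were not called: Ptk2 (FAK) ran from 118 to 122 CPM untreated and from 111 to 117 CPM with HOCl, and Ptk2b (PYK2) from 25.8 to 31.1 and from 28.0 to 30.7 CPM. The tensins Tns1 (log2 change -0.33 ± 0.19) and Tns3 (-0.14 ± 0.07) were not called either.

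One untreated library bears on the members with small changes. Untreated replicate 1 had lower CPM of long transcripts than replicates 2 and 3: among genes with a longest transcript over 8 kb, the median log2 difference of replicate 2 from replicate 1 was 0.27, and under 2 kb it was -0.16. The members' median longest transcript was 4.37 kb, against 3.41 kb over the protein-coding genes tested. Without that library, 8 members were called higher and 14 lower. Added to those lower were Itga4 (-0.30), Itga6 (-0.17), Itgb8 (-0.45), Tln1 (-0.14), Ptk2 (-0.11) and Tns3 (-0.21). Among those higher, Itga7 lost its call and Fermt3 (1.05) gained one. The share of all genes called without that library is not given here, so nothing is read from these counts. The part of transcript length in them was not tested. HOCl against untreated also differed by length. Among protein-coding genes with at least 10 CPM in every B16F10 library, the median log2 change was -0.13 under 2 kb. It was 0.07 from 4 to 8 kb and 0.09 over 8 kb. The part of this trend in the members' changes was not tested. Another alternative was edgeR with all 9 libraries in 1 fit, which shares 1 estimate of the spread with the T cell libraries. None of the members was called by it, and 3 were higher and 6 lower at an unadjusted p under 0.05. That edgeR fit called 37 of all 34290 genes tested, with 1342 higher and 980 lower at an unadjusted p under 0.05.

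The integrin pathway outside the members was read from 6 lists of 106 genes, of which 92 were tested. By edgeR's quasi-likelihood test, 15 rose (16.3%) and 13 fell (14.1%), near the 14.7% and 13.5% over all genes, and their median log2 change was -0.00. Docking and signalling genes gave 8 of 25 higher and 2 lower. Nck1, an SH2 adaptor, rose from 39.2 ± 0.952 to 54.8 ± 1.73 CPM (adjusted p = 0.000105), and Crkl, which binds tyrosine-phosphorylated p130Cas and paxillin, from 70.1 ± 5.81 to 95.8 ± 4.62 CPM (adjusted p = 0.000547). Csk, which restrains Src kinases (log2 change -0.19 ± 0.05, adjusted p = 0.0118), and Dock1, a Rac exchange factor (-0.26 ± 0.06, adjusted p = 0.00456), fell. The call of Csk was lost without HOCl replicate 1 or 2 or untreated replicate 3.

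Other actin linkers gave 3 of 30 higher and 7 lower. Fblim1 (migfilin), which binds kindlin-2 and filamin, fell from 10.1 ± 0.956 to 5.78 ± 0.162 CPM (log2 change -0.83 ± 0.10, adjusted p = 0.000115), and Sorbs2, a vinculin binder, from 6.77 ± 0.110 to 4.34 ± 0.562 CPM (adjusted p = 0.00147). Enah, an actin elongation factor that zyxin recruits, rose by a log2 change of 0.19 ± 0.05 (adjusted p = 0.0137), a call lost when any 1 HOCl library was left out. Lpxn (leupaxin), a paxillin relative of blood cells, went from 0.377 ± 0.0831 to 0.981 ± 0.628 CPM (log2 change 1.34 ± 0.44, adjusted p = 0.0391), with 1.70 CPM in HOCl replicate 3 and a log2 change of 0.69 without it. That call was lost without HOCl replicate 1 or 3 or untreated replicate 2 or 3.

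Of the KANK cortical partners, 1 of 8 rose and none fell: Phldb1 (LL5-alpha) went from 134 ± 4.37 to 167 ± 6.68 CPM (log2 change 0.29 ± 0.05, adjusted p = 0.00118). Regulators of integrin activity gave 2 of 12 higher and 1 lower. Dok1, which competes with talin for the beta tail, rose (log2 change 0.34 ± 0.06, adjusted p = 0.000864), as did Rassf5 (0.64 ± 0.18, adjusted p = 0.0202), a RAP1 effector, and Apbb1ip (RIAM), which brings RAP1 to talin, fell (-0.40 ± 0.10, adjusted p = 0.0118). Rassf5 lost its call without HOCl replicate 1 or 3 or untreated replicate 3, and Apbb1ip without HOCl replicate 1 or 2. Of the other integrins, 1 of 4 was called: Itgb4, the partner of Itga6 in hemidesmosomes, fell from 4.93 ± 0.232 to 3.87 ± 0.291 CPM (adjusted p = 0.0381), a call lost when any 1 of the 6 libraries was left out. Integrin ligands gave 1 of 13 higher, the basement membrane protein Nid1 (31.6 ± 2.21 to 46.4 ± 2.91 CPM, adjusted p = 0.000203), and 2 lower, the laminin chains Lamb1 (log2 change -0.55 ± 0.14, adjusted p = 0.0119) and Lama5 (-0.22 ± 0.07, adjusted p = 0.0340). Lama5 lost its call without HOCl replicate 2 or 3 or untreated replicate 2 or 3.

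Between untreated melanoma and untreated T cells, the members' levels are given as a description. Of 39 members tested, 20 were called higher in B16F10 and 12 higher in T cells, and 7 (Itga1, Itga6, Itga7, Tln1, Ilk, Lims1, Zyx) were not called. Among all 18352 genes tested, 35.8% were called higher in B16F10 and 35.4% higher in T cells, and because the members were chosen on this contrast too, nothing is read from the counts (71.1% of all genes were called in either direction). The members' median log2 difference, B16F10 over T cells, was 0.93, beside -0.02 over all genes. The ranges did not overlap for 87.2% of the members, against 81.8% of all genes. By role, alpha subunits gave 3 of 11 higher in B16F10 and 5 in T cells, beta subunits 4 and 2 of 6, talin, kindlin and KANK genes 6 and 1 of 8, the ILK-PINCH-parvin group 4 and 1 of 7, and adaptors and kinases 3 and 3 of 7.

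**Figure D3:**
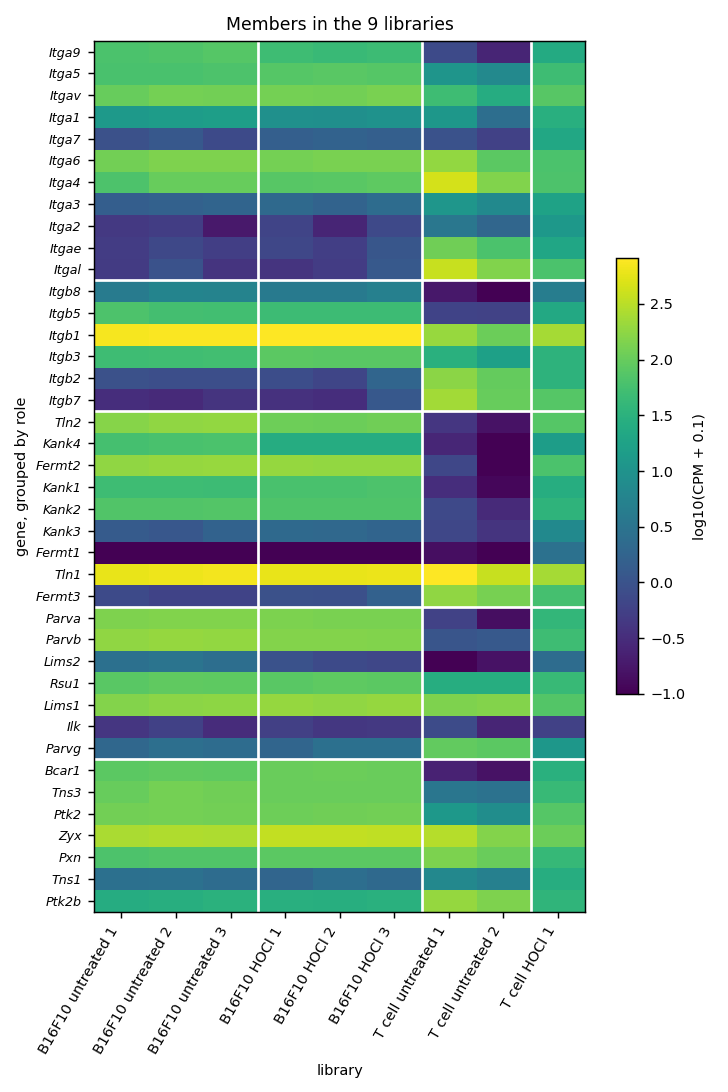
Level of each member, log10(CPM + 0.1) as colour, in the 9 libraries (horizontal axis, grouped by cell type and treatment), with genes on the vertical axis grouped by role. Kank1, Kank2, Kank4, Tln2, Fermt2, Parva, Parvb and Bcar1 are bright in B16F10 and dark in untreated T cells. Itgal, Itgb7, Itgb2, Itgae, Fermt3 and Parvg show the opposite, and the library labelled T cell HOCl shows both sets. Kank3 is low in both untreated cell types, at 1.05 to 1.57 CPM in B16F10 and 0.581 and 0.288 CPM in T cells.

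The 6 members highest in B16F10 over T cells were intracellular. Tln2 stood at 159 to 187 CPM in untreated B16F10 and at 0.320 and 0.0576 CPM in the T cell libraries, a log2 difference of 9.62 ± 0.54. Bcar1 stood at 84.0 to 89.4 against 0.140 and 0.0576 CPM (9.52 ± 0.32), and Kank4 at 57.2 to 63.3 against 0.160 and 0 CPM (9.31 ± 0.67). Fermt2 stood at 185 to 201 against 0.581 and 0 CPM (9.17 ± 0.97), Parva at 140.5 to 148 against 0.481 and 0.0384 CPM (8.90 ± 0.71), and Kank1 at 47.3 to 49.0 against 0.220 and 0.0192 CPM (8.42 ± 0.59). In all 6, T cell replicate 2 was at or under 3 counts (0.0576 CPM there), the limit up to which a gene at 0 could stand, so the sizes of these differences are loose. Without T cell replicate 1 the log2 differences were 11.23 for Tln2, 10.22 for Bcar1, 14.54 for Kank4, 16.22 for Fermt2, 11.51 for Parva and 10.86 for Kank1. Without replicate 2 they were 8.95, 9.12, 8.40, 8.24, 8.09 and 7.63 in the same order. In each of these the T cell replicate with more melanocyte marker RNA, replicate 1, also had the higher value, and its part was not tested.

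The 6 members highest in T cells were 4 leukocyte integrin subunits and the blood cell forms of kindlin and parvin. Itgb7 stood at 233 and 101 CPM in T cells and at 0.189 to 0.283 CPM in untreated B16F10, a log2 difference of -9.69 ± 0.45. Itgal stood at 375 and 145 against 0.283 to 0.861 CPM (-9.23 ± 0.63), and Itgb2 at 168 and 95.5 against 0.756 to 0.831 CPM (-7.60 ± 0.28). Itgae, which pairs with Itgb7 to bind E-cadherin, stood at 117 and 63.0 against 0.391 to 0.609 CPM (-7.78 ± 0.35). Fermt3 stood at 182 and 129.8 against 0.501 to 0.668 CPM (-8.35 ± 0.24), and Parvg at 94.8 and 83.5 against 1.92 to 2.56 CPM (-5.54 ± 0.19). Each group was more than 10-fold from the other, and T cell replicate 1 was the higher of its pair in all 6. Without it the log2 differences of Itgb7 and Itgal were -9.04 and -8.46, and without untreated B16F10 replicate 2 that of Itgal was -9.85.

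Several families were made up of a different form in each cell type, per length. Fermt2 made up 99.7 ± 0.0556% of kindlin transcripts in untreated B16F10 and Fermt3 99.8 ± 0.266% in untreated T cells (n = 2). Parvb (73.7 ± 0.140%) and Parva (25.0 ± 0.228%) made up the parvins in B16F10, and Parvg 99.1 ± 0.0703% in T cells. Family shares were computed with the union of exons only, and their spreads between libraries do not cover the choice of length. Parva has 10157 bases of union exons and a longest transcript of 5869, and Parvb 4416 and 3784. The split between Parvb and Parva is therefore loose. Ptk2 made up 72.8 ± 1.67% of Ptk2 and Ptk2b transcripts in B16F10, and Ptk2b 96.4 ± 0.242% in T cells. Talin and PINCH differed from this, since Tln1 (87.3 ± 0.201% and 100.0%) and Lims1 (97.4 ± 0.299% and 100.0%) were the main form in both. The KANK sum was 34.4 ± 0.717 RPKM in B16F10 and 0.249 ± 0.171 RPKM in T cells, where Kank3 (0.133 ± 0.0635 RPKM) was the highest of the 4, by less than its spread.

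The remaining matrix receptors lay mostly on the melanoma side, at log2 differences of 7.19 for Itga9 (8.51 without T cell replicate 1, 6.57 without replicate 2), 6.57 for Itgb5, 2.58 for Itga5, 2.05 for Itgb1, 1.37 for Itgav and 0.93 for Itgb3. The call of Itgb3 was lost without untreated B16F10 replicate 3. Itgb8 stood at 4.08 to 5.73 CPM in untreated B16F10 and at 0.0801 and 0 CPM in T cells, too near 0 for a firm fold: its log2 difference of 6.72 was 10.98 without T cell replicate 1 and 5.82 without replicate 2. On the T cell side were Itga2 (-3.43), Itga3 (-2.78) and Itga4 (-1.99, and -1.04 without T cell replicate 1). Of the intracellular members, Parvb and Kank2 (7.19 each, and 8.23 for Kank2 without T cell replicate 1), Tns3 (4.96), Ptk2 (3.35), Rsu1 (1.40) and Kank3 (1.33) were higher in B16F10, and Ptk2b (-2.81), Tns1 (-1.38) and Pxn (-1.04) in T cells. The call of Kank3 was lost in 6 of the alternatives, among them each untreated B16F10 library left out and T cell replicate 2 left out. Lims2 stood at 2.51 to 3.07 CPM against 0 and 0.0576 CPM, and its log2 difference of 6.18 was 5.23 without T cell replicate 1 and 10.10 without replicate 2. The 2 T cell libraries differed from each other by length. Replicate 2 had a median log2 CPM 0.39 above replicate 1 for transcripts under 2 kb. The difference was -0.40 for those of 4 to 8 kb and -0.76 for those over 8 kb. Of 17 members with at least 10 CPM in T cells, 16 were lower in replicate 2, at the most by a log2 difference of -1.61 (Itga4). The median of these 17 was -0.89. The part of length in it was not tested, and the share of all genes lower in replicate 2 is not given here. Of the 7 members not called, Itga6, Itga7, Tln1, Ilk, Lims1 and Zyx had opposite signs with one or the other T cell library left out. Without T cell replicate 1, Itga6 (0.38), Tln1 (0.49), Zyx (0.54) and Itga1 (2.23) were called higher in B16F10, and without replicate 2, Itga6 (-0.61), Tln1 (-0.43) and Zyx (-0.28) were called higher in T cells.

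The makeup of integrin subunits, as each one's share of the summed RPKM of the 11 alpha or the 6 beta members, follows the members' levels. In untreated B16F10, Itgb1 made up 87.7 ± 0.930% of beta transcripts, Itgb5 7.74 ± 1.01% and Itgb3 4.15 ± 0.103%. In untreated T cells the beta transcripts were Itgb7 (40.5 ± 3.93%), Itgb2 (30.3 ± 2.88%) and Itgb1 (26.3 ± 0.797%). With HOCl the B16F10 share of Itgb3 was 6.19 ± 0.0536% and that of Itgb5 5.89 ± 0.0115%, and that of Itgb1 87.5 ± 0.154%. The order of Itgb3 and Itgb5 with HOCl rests on the length used, since with the longest transcript of each gene they stood at 5.92 ± 0.0513% and 5.97 ± 0.0118%. The alpha transcripts of untreated B16F10 were Itga6 (27.1 ± 0.565%), Itga5 (23.2 ± 1.90%), Itgav (19.4%), Itga9 (16.4 ± 0.826%) and Itga4 (11.4%). With HOCl, Itga5 stood at 28.5 ± 1.22% and Itga6 at 26.1 ± 0.743%, and Itga9 at 11.2 ± 0.643%. In untreated T cells, Itgal made up 37.5 ± 2.28% of alpha transcripts, Itgae 19.9 ± 3.49%, Itga4 19.9 ± 3.52% and Itga6 14.7%. By union exons, Itgae and Itga4 did not differ beyond their spread. The order of alpha subunits in T cells also rests on the length used. With the longest transcript, Itga6 made up 21.9 ± 1.17% there, Itga4 20.2 ± 3.54% and Itgae 16.8 ± 2.98%. The order of Itga5 and Itga6 depends on the length used: with the longest transcript, Itga6 made up 37.7% and Itga5 17.2% in untreated B16F10, and 36.5 ± 0.923% and 21.3 ± 0.919% with HOCl.

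**Figure D4:**
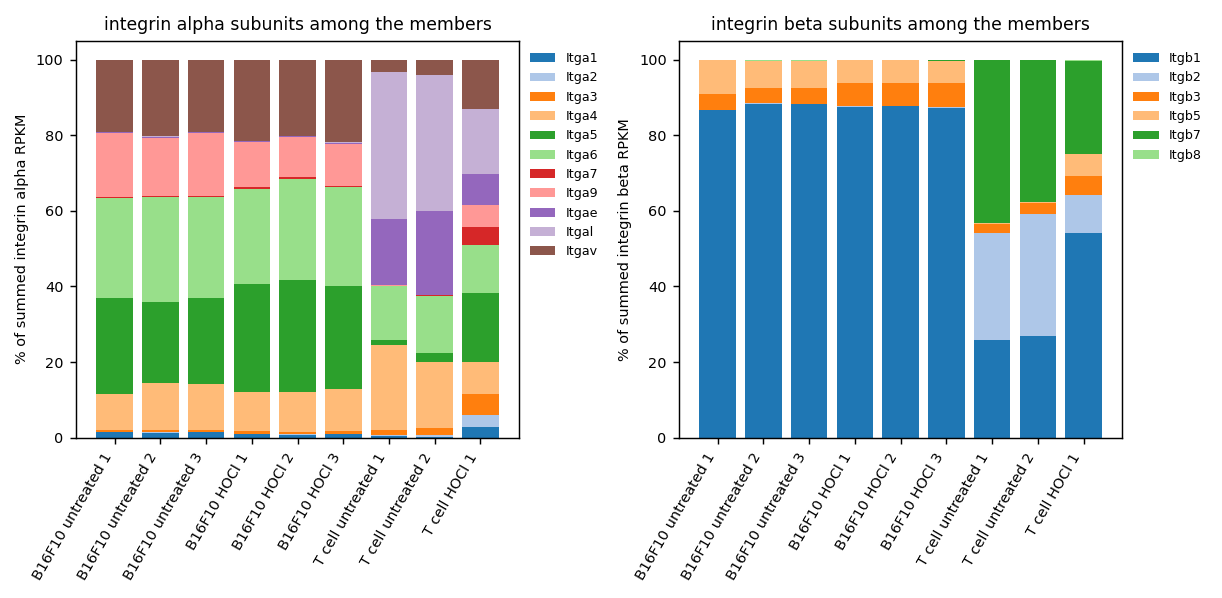
Share (%) of each subunit in the summed RPKM of the alpha (left) and beta (right) members, 1 bar per library. Itgb1 fills 86.7 to 88.3% of each untreated B16F10 bar for beta subunits, while Itgb7, Itgb2 and Itgb1 share the untreated T cell bars; the library labelled T cell HOCl has 54.2% Itgb1.

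Among the 99 other adhesion genes tested between the untreated cell types, 47 were higher in B16F10 (47.5%) and 39 in T cells (39.4%), against 35.8% and 35.4% of all genes. Actin linkers gave 19 of 30 higher in B16F10 and 8 in T cells. Enah stood at 98.8 ± 4.87 CPM in B16F10 and 0.481 ± 0.0282 CPM in T cells (log2 difference 7.43, adjusted p = 8.33e-06), and Lpxn at 0.377 ± 0.0831 and 179.9 ± 44.7 CPM (-9.14, adjusted p = 1.12e-05). Fblim1 stood at 10.1 ± 0.956 CPM in B16F10 and at 0.0200 and 0 CPM in the T cell libraries (adjusted p = 5.24e-05), and Actn2, an alpha-actinin, at 0.509 ± 0.0463 against 12.9 ± 0.496 CPM (adjusted p = 2.59e-05). KANK cortical partners gave 5 of 8 higher in B16F10 and none in T cells, among them Kif21a, the kinesin that KANK1 binds (74.7 ± 7.50 against 0.279 ± 0.286 CPM, adjusted p = 0.000115), and Phldb2 (LL5-beta; 55.1 ± 5.39 against 0.297 ± 0.175 CPM, adjusted p = 2.71e-05).

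Regulators of integrin activity lay on the other side, with 1 of 13 higher in B16F10 and 8 in T cells. Skap1 and Fyb, which form the adaptor pair that carries RAP1 signals to LFA-1, stood at 219 ± 41.6 and 541 ± 106 CPM in T cells and at 0.0847 ± 0.0445 and 2.66 ± 0.430 CPM in B16F10 (adjusted p = 9.8e-06 and 8.33e-06). Skap2, the relative of Skap1, was higher in B16F10, at 123 ± 1.79 against 15.9 ± 1.85 CPM (adjusted p = 2.9e-05). Docking genes gave 10 of 27 higher in B16F10 and 14 in T cells: Dock1 (95.2 ± 4.95 CPM against 0.320 and 0.0192 CPM, adjusted p = 0.000109) and Cav1 (6.46 ± 0.593 CPM against 0 and 0.0384 CPM, adjusted p = 0.000207) in B16F10, and Arhgef6, a PAK-interacting exchange factor (-8.46, adjusted p = 2.59e-05), and Pak1 in T cells. Pak1 was at 0 in all 3 untreated B16F10 libraries and at 7.75 and 4.82 CPM in T cells, at least 96.1-fold lower in B16F10 with 3 counts per library as the floor (adjusted p = 0.000475).

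Of the 6 other integrins tested, 2 were higher in B16F10 and 4 in T cells. Itga8 stood at 1.97 ± 0.176 CPM in B16F10 and at 0 in both T cell libraries, at least 32.7-fold higher in B16F10 (adjusted p = 0.000371), and Itgb4 at 4.93 ± 0.232 against 0.435 ± 0.262 CPM (adjusted p = 0.00123). Itgax, a marker of dendritic cells, stood at 5.39 and 1.57 CPM in T cells against 0.0163 ± 0.0282 CPM (adjusted p = 0.00111), and Itga2b, the platelet integrin, at 17.4 and 4.30 CPM (log2 difference -3.03, adjusted p = 0.00437, and -1.77 without T cell replicate 1). Summed platelet markers stood at 1.50 and 2.73 CPM in these T cell libraries, and their part in Itga2b was not tested. Integrin ligands gave 10 of 15 higher in B16F10, among them the laminin chain Lama4 (77.3 ± 4.93 against 0.200 ± 0.283 CPM, adjusted p = 0.000376) and osteopontin, Spp1 (20.8 ± 1.57 against 0.118 ± 0.00351 CPM, adjusted p = 1.34e-05). Higher in T cells were 5, among them the LFA-1 ligands Icam1 (2.18 ± 0.308 against 83.8 ± 33.4 CPM, adjusted p = 2.81e-05) and Icam2 (1.87 ± 0.0936 against 32.7 ± 3.90 CPM, adjusted p = 1.4e-05).

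The library labelled T cell HOCl held both sets of members at once, and with 1 library no test of HOCl in T cells was made. The 14 members more than 10-fold higher in untreated B16F10 than in untreated T cells, with at least 1 CPM in B16F10, stood there at 24.2% (Kank4) to 87.9% (Itgb8) of their untreated B16F10 mean, with a median of 39.0%. Melanocyte markers stood at 25.0 to 42.6% of theirs, with a median of 27.3%. In the untreated T cell libraries the same 14 members had medians of 0.492% and 0.144%. The 6 members of the T cell side stood at 13.2% (Parvg) to 44.5% (Itgb7) of their untreated T cell mean, with a median of 24.6%, and T cell markers at 4.96% (Il7r) to 26.8% (Lck), with a median of 17.0%. Tln2 was at 75.2 CPM, Fermt2 at 63.0 CPM, Parvb at 50.1 CPM and Kank4 at 14.6 CPM in that library, against at most 1.15 CPM in either untreated T cell library. In bulk RNA, fewer cells of a type and less RNA per cell cannot be told apart, and the part of melanocyte marker RNA and of mitochondrial RNA in these values was not tested.

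**Figure D5:**
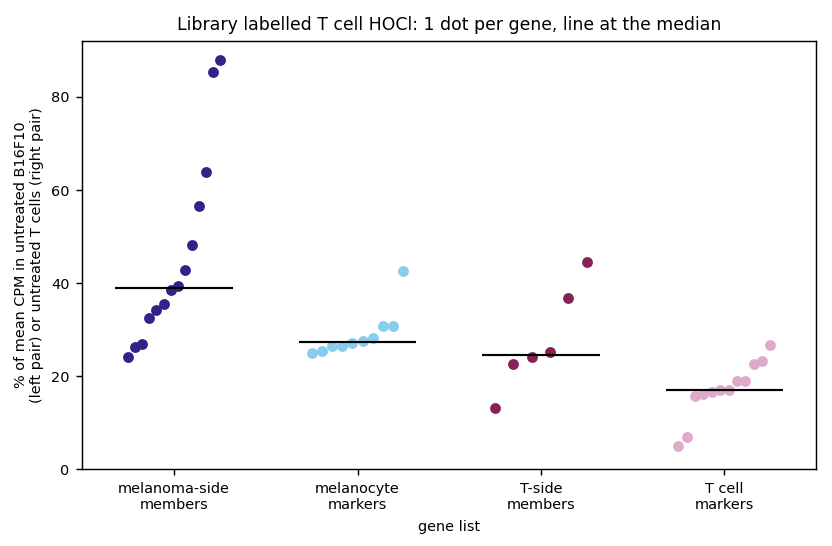
CPM in the library labelled T cell HOCl as a percentage of the mean in untreated B16F10 (melanoma-side members and melanocyte markers) or untreated T cells (T-side members and T cell markers), 1 dot per gene and a line at each median. The medians are 39.0%, 27.3%, 24.6% and 17.0% from left to right.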

How the data were processed

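RNA was measured in 9 libraries, grouped by their titles. The authors deposited raw counts per gene, without normalisation. The submitters' processing notes name build mm10, featureCounts 1.6.0, STAR 2.7.1a, DESeq2 1.22.2 and FastQC 0.11.8. On annotation release, strand setting and multi-mapping reads nothing is given in the sources used here. The authors' deposited tables also give a log2 fold change and an adjusted p-value, used only to set calls side by side. Whether reads of overlapping and antisense genes were told apart in the counts is therefore not known. Of 54838 genes, 54809 were found by ID in GENCODE M21 (GRCm38), whose union of exons gave the lengths for RPKM; a gene that GENCODE or the deposited table did not name (29 had no symbol) kept its ID.

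Both contrasts were fitted over all genes with edgeR 4.0.16 (R 4.3.3): filterByExpr, TMM, a robust quasi-likelihood F test and p-values adjusted by Benjamini-Hochberg across every gene in the fit, at 0.05. The standard error (SE) is the log2 fold change over the square root of F. The fit was checked on simulated counts with the same spread for every gene, set in advance and not taken from these libraries. That check does not cover differences by transcript length, such as those between the T cell libraries. Nor does it cover genes far apart between these 2 libraries, such as Itga4 (456 and 149 CPM). Tables and plots used Python 3.11.15, pandas 2.3.3 and matplotlib 3.10.9. A gene at 0 could stand at up to 3 counts, 0.0489 to 0.0654 CPM in 8 libraries and 0.234 CPM in the library labelled T cell HOCl. Such floors cover counting error only. Counts between groups of 3 and 3, or 3 and 2, leave little precision for small changes.

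The members and lists were chosen with earlier results of these data known. All 40 members were named. Library values were given for the 12 members with the largest absolute log2 change among those whose higher group averaged at least 50 counts, the KANK and PINCH genes, and, between cell types, the 6 largest differences per direction. In each list of other adhesion genes, up to 2 called genes per direction were named. Values beyond this rule were chosen after being seen. Alternatives were DESeq2 1.42.0 as the test, its size factors within edgeR, totals in place of TMM, and a filter of 1 CPM or none. Others were 1 fit of all 9 libraries, a block for replicate number, and each replicate left out. Other lengths were used for the shares of integrin subunits, but not for family shares. HOCl in T cells was not tested.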

Additional observations from a re-analysis of the deposited data

Results flagged for a closer look

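In the library labelled T cell HOCl, data outside both comparisons, 16 members stood more than 10-fold above either untreated T cell library: Itga7, Itga9, Itgb5, Itgb8, Tln2, Fermt1, Fermt2, Kank1, Kank2, Kank3, Kank4, Lims2, Parva, Parvb, Bcar1 and Tns3. Among them was Fermt1 (kindlin-1, the epithelial kindlin), at 2.80 CPM there, at 0 in all 6 B16F10 libraries and at 0.0401 and 0 CPM in untreated T cells. The same library had counts for the most genes of the 9, 44225. The share of all genes more than 10-fold above both untreated T cell libraries is not given here. The count is therefore not read as a trait of the members. Whether these values come from T cells was not tested.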

How the results depend on the processing

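Under DESeq2's size factors, no filter, a filter of 1 CPM, library totals without TMM and DESeq2, the counts of called members and of other adhesion genes stayed within 1.5 times those reported in both contrasts. Library totals without TMM moved the median log2 difference of all genes between cell types from -0.02 to 0.22. With all 9 libraries in 1 fit by edgeR, the B16F10 counts were 0 and 0 for members and 0 and 0 for other adhesion genes. Of the other adhesion genes, 8 were higher and 5 lower at an unadjusted p under 0.05 by edgeR. That fit called 37 of all 34290 genes tested, and the cause was not tested. Leaving out 1 library gave 6 to 8 members higher and 7 to 14 lower with HOCl, and 8 to 20 other adhesion genes higher and 7 to 20 lower. The share of all genes called in each of these fits is not given here, so nothing is read from the counts. Between cell types, the calls of Itgb3 and Kank3 were lost without untreated B16F10 replicate 3, and that of Kank3 without replicate 1 or 2. No other member's call changed when 1 untreated B16F10 library was left out. Fits with 1 T cell library left out rest on 1 T cell library and are not counted here. Without T cell replicate 1 the log2 differences of Itga6 and Tln1 turned to 0.38 and 0.49 (-0.61 and -0.43 without replicate 2), and without T cell replicate 2 that of Zyx turned to -0.28 (0.54 without replicate 1).

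The replicate numbers did not pair the B16F10 libraries (correlations of deviations 0.035, -0.003 and 0.001). With the replicate number as a block, 8 members were higher and 8 lower, and 19 and 15 other adhesion genes. Between cell types the block gave 18 and 11 members and 43 and 32 other adhesion genes, and the calls of Itgb3, Kank3 and Tns1 were lost. The share of all genes called with the block is not given here either, and nothing is read from these counts. Without length scaling, Itgb1 made up 86.7% of beta transcripts in untreated B16F10 and 32.7% in T cells, Itgb7 34.2% and, of alpha transcripts, Itga4 34.0% and Itgal 30.2% in T cells and Itga5 12.9% in B16F10. With the longest transcript, Itgal made up 33.5% in T cells, Itga6 37.7% and Itga5 17.2% in B16F10. The causes were not tested. Genes near 0 are limited by depth, most in the library labelled T cell HOCl.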
